A study of Mus musculus with 6 samples.

Results

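The genes described here are the nuclear genes of NADH:ubiquinone oxidoreductase, complex I of the mitochondrial respiratory chain, in mouse lung. They were chosen by name alone, as protein-coding genes whose symbol begins with Nduf followed by a, b, c, s or v and a digit or the letter f. This took 45 of the 21903 protein-coding genes, and of the 55573 genes of all kinds, in the deposited count table: 37 genes with a subunit symbol and 8 Ndufaf genes for assembly factors. The rule itself used no measured value, though earlier results of these data were known when it was chosen. It left out Ndufab1, the mitochondrial acyl carrier protein that is also a complex I subunit, and Ndufb1-ps, which the annotation lists as a non-coding gene.

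The 6 RNA sequencing libraries were made from total lung RNA of C57BL/6 mice, all wild type and 9 to 10 weeks old. The CS group (3 libraries) had breathed cigarette smoke for 75 min per session, in a pair of sessions each day on 5 days a week over 4 weeks. The SS-31H_CS group (3 libraries) had smoke exposure together with SS-31 at 5 mg/kg once a day, called a high dose in the labels. Both groups were thus exposed to smoke, with the schedule stated for CS only, and no unexposed lungs were among the 6 libraries. The comparison addresses what SS-31 changes in smoke-exposed lung. Nothing in the labels says that each library came from a separate mouse, so the p-values measure the spread between these libraries, which may be technical.

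Complex I takes electrons from NADH, passes them along a chain of iron-sulfur clusters to ubiquinone and pumps protons across the inner mitochondrial membrane. Its N module oxidises NADH, its Q module reduces ubiquinone, and its proximal and distal membrane arms carry the proton channels. A few core subunits do the catalysis, with the membrane ones encoded in mitochondrial DNA and the others in the nucleus. Accessory subunits surround them, and assembly factors help to build the complex without staying in it. SS-31 (elamipretide) is a small peptide that binds cardiolipin, a lipid of the inner membrane in which complex I sits. Complex I is also a well known site of superoxide formation.

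The members lie on 17 chromosomes, with Ndufa1 and Ndufb11 on the X chromosome. Their summed exons were short, with a median of 1569 bases against 3504 for all protein-coding genes. For 13 members (28.9%) another protein-coding gene starts within 1000 bases upstream on the other strand, against 6.8% of all protein-coding genes. Examples are Ndufb3 with Fam126b, Ndufa7 with Rps28 and Ndufaf5 with Esf1.

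Promoter windows of RefSeq (GRCm38.p6, from 250 bases before to 50 bases after the gene start) were present for 39 of the 45 members. They were searched on both strands for the letters of 4 factors known for regulating nuclear respiratory genes. The YY1 letters AAGATGGC were in the windows of 8 members (20.5%) and of 3.19% of all 27025 genes. The NRF1 letters CGCATGCG were in 4 members (10.3%) and 2.07% of all genes. The GABPA letters CCGGAAG were in 6 members (15.4%) and 9.93% of all genes, and the ESRRA letters AAGGTCA in 3 members (7.7%) and 5.38%. Each motif was counted apart from the others, and a match describes the letters only, not a bound site. The member windows were also richer in G and C, with a median of 59.0% against 52.8% for all windows. The 27025 genes were not limited to protein-coding ones. The part of either in these shares was not tested.

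All 8 YY1 matches read along the gene strand and began 10 to 38 bases after the start, and 7 of them held the annotated start codon in the ATG of the motif. Among all 862 genes with these letters, 280 (32.5%) had a match on the gene strand after the start. The 30-base stretches around these 8 matches are shown because they share both letters and position, 5′ to 3′ on the gene strand with the motif in capitals.
Ndufa3 (chr7:3617384-3617413, + strand): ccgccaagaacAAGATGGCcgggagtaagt
Ndufa9 (chr6:126849097-126849126, - strand): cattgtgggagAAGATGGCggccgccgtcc
Ndufaf8 (chr11:120098933-120098962, + strand): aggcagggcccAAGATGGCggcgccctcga
Ndufb8 (chr19:44555393-44555422, - strand): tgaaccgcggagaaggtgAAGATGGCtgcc
Ndufc1 (chr3:51408915-51408944, - strand): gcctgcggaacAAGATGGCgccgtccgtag
Ndufs4 (chr13:114388045-114388074, - strand): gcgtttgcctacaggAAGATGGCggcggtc
Ndufs6 (chr13:73328433-73328462, - strand): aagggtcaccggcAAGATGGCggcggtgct
Ndufs7 (chr10:80249462-80249491, + strand): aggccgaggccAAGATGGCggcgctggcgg

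The NRF1 matches lay at less regular distances, from 112 bases before the start in Ndufaf4 to 17 bases after it in Ndufaf5. They are shown in the same way, since NRF1 is the factor best known for genes of this kind.
Ndufa8 (chr2:36049329-36049358, - strand): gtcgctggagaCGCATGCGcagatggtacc
Ndufa11 (chr17:56717692-56717721, + strand): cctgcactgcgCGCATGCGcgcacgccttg
Ndufaf4 (chr4:24897960-24897989, + strand): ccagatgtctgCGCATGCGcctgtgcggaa
Ndufaf5 (chr2:140170652-140170681, + strand): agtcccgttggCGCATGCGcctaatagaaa
The difference with SS-31 is given here for the members with and without these letters, as a description with no test. The median log2 fold change (SS-31H_CS over CS, so that positive values are higher with SS-31) was 0.05 in the 8 members with the YY1 letters and 0.04 in the 30 tested members with a window and without them. It was -0.12 in the 4 members with the NRF1 letters, from -0.28 to 0.06, and 0.05 in the 34 without them.

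Total counts ran from 15611925 to 17360052 per library, so that 3 counts corresponded to 0.172 to 0.185 CPM (counts scaled to a common library size, after TMM scaling of the library sizes). The threshold for a changed gene was an adjusted p of 0.05 in edgeR's quasi-likelihood test, adjusted by the Benjamini-Hochberg method over the 16965 genes with enough counts. On the first principal component CS replicate 3 (-61.3) and SS-31H_CS replicate 3 (44.8) lay at the ends. CS replicate 3 also had the lowest sum of the 4 B cell markers, 37.9 CPM against 150 to 227 CPM in the other libraries. For the 5 erythroid markers it had 190.5 CPM against 716 to 940.5 CPM. None of these markers passed the test, and what set this library apart was not tested. The defining lung markers were present in every library, with a summed level of 35570 to 41390 CPM in CS and 35860 to 67380 CPM in SS-31H_CS over 6 genes. Few markers of single cell types passed the test. The summed levels of the groups lay apart for some lists and overlapped for others. The 10 ciliated cell markers summed to 382 to 561 CPM in CS and 746 to 1139 CPM in SS-31H_CS, and the 6 alveolar macrophage markers to 1394 to 1822 CPM and 562 to 939 CPM. Of the ciliated markers 1 passed (adjusted p = 0.0467 in edgeR's test), and all 10 were higher at an unadjusted p under 0.05. Of the macrophage markers 0 passed (lowest adjusted p = 0.080), and 4 were lower at an unadjusted p under 0.05. Over all tested genes 9.93% were higher and 8.23% lower at that p. The 4 club cell markers summed to 23420 to 28460 CPM in CS and 27310 to 62310 CPM in SS-31H_CS, with overlap. Of these 1 passed in edgeR's test (adjusted p = 0.0467), and all 4 were higher at an unadjusted p under 0.05. In bulk lung, fewer cells of a type and less RNA per cell cannot be told apart, and the part of these shifts in the complex I values was not tested.

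Of the 45 members, 44 had enough counts to be tested, and none of them changed. Over all tested genes, 26 (0.153%) changed. At an unadjusted p under 0.05, 2 members were higher with SS-31, Ndufa6 and Ndufb5, against 9.93% of all tested genes, and 0 were lower, against 8.23%. The 3 SS-31H_CS libraries all lay above the 3 CS libraries for Ndufa6, Ndufb3 and Ndufb11, against 13.6% of all tested genes, and all below them for Ndufb2 and Ndufs1, against 12.4%. Members were therefore no more often among the higher or lower genes than genes in general. DESeq2, run beside edgeR, called 1 member, Ndufa6, at an adjusted p of 0.0473, and 941 genes in all, 5.57% of those to which it gave an adjusted p.

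The estimated differences were small. Log2 fold changes ran from -0.30 (Ndufs8) to 0.40 (Ndufa6), with a median of 0.05 for the subunit genes, 0.05 for the assembly factor genes and 0.01 for all tested genes. The median size, whatever the direction, was 0.08 for the members, a 1.06-fold difference, and 0.22 for all tested genes. For 34 of the 44 members (77.3%) the 95% interval of the difference lay within 1.5-fold in either direction, and for all 44 tested members within 2-fold. The same 1.5-fold limit held for 41.9% of all tested genes. The members were also expressed above most genes, with a median of 5.32 log2 CPM against 4.41, and their part in this narrower spread was not tested.

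**Figure D1:**
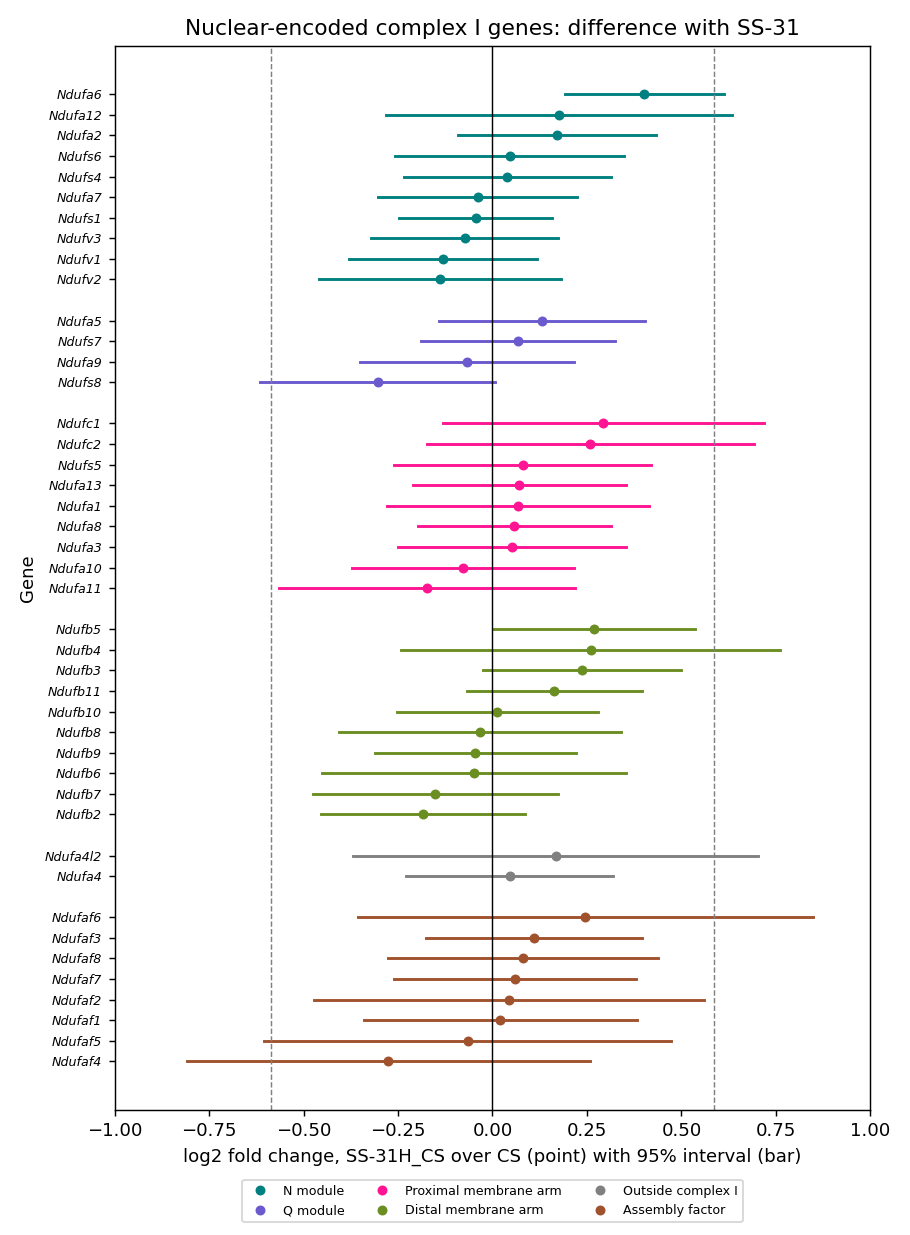
Each point is the log2 fold change of 1 of 43 tested members (SS-31H_CS over CS, x axis) from edgeR's fit with its 95% interval as a bar, by module, and dashed lines mark 1.5-fold. The intervals of Ndufa6 and Ndufb5 lie to the right of 0, no interval lies wholly to the left of it, and Ndufa6 has the highest point at 0.40.

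Among the core subunits of the N module, Ndufv1 carries the flavin at which NADH is oxidised. Its level was 97.8, 88.5 and 102 CPM in CS replicates 1, 2 and 3 and 93.5, 81.0 and 88.4 CPM in SS-31H_CS replicates 1, 2 and 3. The groups overlapped, and the log2 fold change was -0.13 (SE 0.108, with adjusted p = 0.546). Ndufv2, which carries an iron-sulfur cluster beside the flavin, was at 60.8, 51.9 and 72.4 CPM in CS and 51.0, 57.4 and 59.7 CPM in SS-31H_CS. CS replicate 2 and SS-31H_CS replicate 1 were its lowest libraries, and its log2 fold change was -0.14 (SE 0.139, with adjusted p = 0.620). It was -0.013 without CS replicate 3 and -0.25 without CS replicate 2. Ndufs1, the largest subunit of the complex and a carrier of several iron-sulfur clusters, had 67.6, 67.2 and 66.1 CPM in CS and 66.0, 63.9 and 65.0 CPM in SS-31H_CS. All SS-31H_CS values lay below all CS values, by a narrow margin: the means were 67.0 ± 0.748 (SD, n = 3) and 64.9 ± 1.05 CPM (SD, n = 3). The fold change of Ndufs1 was 0.970 with a 95% interval of 0.843 to 1.12.

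In the Q module, Ndufs7, which carries the last iron-sulfur cluster before ubiquinone, was at 77.7, 66.8 and 76.1 CPM in CS and 84.5, 72.7 and 73.9 CPM in SS-31H_CS. Its groups overlapped, with a log2 fold change of 0.07 (SE 0.112).

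Ndufs8, a ferredoxin-like subunit that relays electrons within the Q module, had the most negative fold change of all members. Its level was 60.7, 55.5 and 63.2 CPM in CS and 57.8, 45.0 and 42.5 CPM in SS-31H_CS. SS-31H_CS replicates 2 and 3 lay below every CS library, and SS-31H_CS replicate 1 lay within the CS range. The log2 fold change was -0.30 (SE 0.136) with an unadjusted p of 0.0548 and an adjusted p of 0.288 in edgeR's test. Without SS-31H_CS replicate 1 it was -0.46 (unadjusted p = 0.00466, adjusted p = 0.121 in edgeR's test), and without SS-31H_CS replicate 3 it was -0.22. With RLE size factors, limma voom or no low-count filter its unadjusted p was 0.0490, 0.0489 and 0.0418, with adjusted p of 0.273, 0.280 and 0.354. Under the other alternative analyses, except with SS-31H_CS replicate 1 left out, its unadjusted p lay above 0.05. It ran there from 0.0506 with the replicate number as a block to 0.171 without SS-31H_CS replicate 3, both in edgeR's test.

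Ndufs3, another core gene of the Q module, could not be compared. Its counts were 0, 1 and 12 in CS replicates 1, 2 and 3 and 0 in each SS-31H_CS library. Its mean of 0.0583 FPKM (the deposited values, which are scaled for gene length and library total) was the lowest of all members, below Ndufb4 at 2.13 FPKM. Ndufs3 lies at chr2:90894634-90904827 (GRCm38), and the genes next to it in the same stretch were also near 0. Kbtbd4 and C1qtnf4 had no count in any library, Celf1 had 1, Rapsn 4 and Ptpmt1 5 counts over the 6 libraries together. Outside this stretch Mtch2 on one side had 3161 counts and Psmc3 on the other side 14931. The counts of Ndufs3 therefore give no level for this gene, and what set the stretch to near 0 was not tested.

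**Figure D2:**
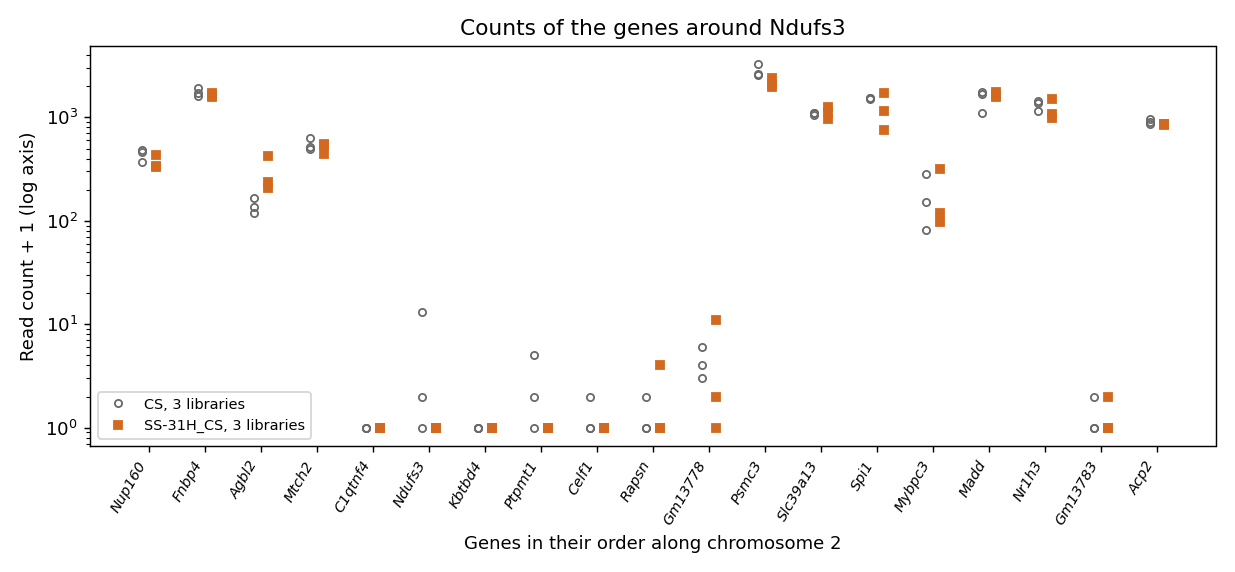
Read counts plus 1 (log y axis) of the genes around Ndufs3 in their order along chromosome 2, with 3 CS libraries as circles and 3 SS-31H_CS libraries as squares. From C1qtnf4 to Rapsn no library exceeds 12 counts, while Mtch2 and Psmc3 to either side are well counted.

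Over the 6 core subunits tested, 1 log2 fold change was positive and 5 were negative, with a median of -0.09. Over the 28 accessory subunits, 18 were positive and 10 negative, with a median of 0.06. None of these genes passed the test. The summed level of the core subunits was 505, 459 and 527 CPM in CS and 495, 447 and 474 CPM in SS-31H_CS, so that the groups overlapped. That of the accessory subunits was 1217, 1079 and 1309 CPM in CS and 1290, 1188 and 1247 CPM in SS-31H_CS, again with overlap. The difference between core and accessory subunits was not tested.

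Ndufa6, an accessory subunit of the N module that binds the acyl carrier protein, differed most. Its level was 55.5, 51.9 and 54.1 CPM in CS and 72.1, 73.2 and 68.2 CPM in SS-31H_CS. All SS-31H_CS libraries lay above all CS libraries, and the gap between the groups was wider than the range within either. The means were 53.9 ± 1.80 and 71.2 ± 2.61 CPM (SD, n = 3 each), a fold of 1.32 with a 95% interval of 1.14 to 1.53. The log2 fold change was 0.40 (SE 0.0918, unadjusted p = 0.00224), and the adjusted p was 0.107 in edgeR's test, short of the threshold. Across 16 alternative analyses the adjusted p ranged from 0.0473 with DESeq2 to 0.277 with SS-31H_CS replicate 3 left out. Ndufa6 shares no 50-base stretch with another annotated gene and none of its exons overlaps another gene.

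The partner protein of Ndufa6, Ndufab1, lies outside the rule. It was at 40.4, 38.6 and 43.6 CPM in CS and 45.5, 42.4 and 42.3 CPM in SS-31H_CS, with overlapping groups and a log2 fold change of 0.09 (SE 0.0990).

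The other accessory subunits of the N module stayed closer to 1-fold. Ndufs4, a late-joining subunit whose loss causes Leigh-like disease in mice, was at 30.4, 29.3 and 36.6 CPM in CS and 33.5, 34.0 and 31.5 CPM in SS-31H_CS (log2 fold change 0.04, SE 0.119). Ndufs6, a zinc-binding subunit, was at 25.7, 21.0 and 26.6 CPM in CS and 27.1, 24.6 and 23.9 CPM in SS-31H_CS (log2 fold change 0.05, SE 0.132). Both pairs of groups overlapped. Ndufa2, a subunit with a thioredoxin-like fold, had the highest level per length of all members, a mean of 105.6 FPKM. Its level was 59.6, 49.9 and 61.1 CPM in CS and 68.2, 63.9 and 60.1 CPM in SS-31H_CS, with overlapping groups and a log2 fold change of 0.17 (SE 0.114, with adjusted p = 0.456). Of the exons of Ndufa2, 11.5% overlap Tmco6 on the other strand, and the reads of the pair may not be told apart. Ndufa7, Ndufa12 and Ndufv3 had log2 fold changes of -0.04, 0.18 and -0.07. Over the 10 genes of the module 5 were positive and 5 negative, with a median of 0.00.

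Ndufa9, a nucleotide-binding accessory subunit near the ubiquinone pocket, was at 63.6, 56.9 and 71.9 CPM in CS and 64.6, 54.7 and 64.3 CPM in SS-31H_CS. The groups overlapped, with a log2 fold change of -0.07 (SE 0.123). Ndufa5, the other accessory subunit of the Q module, had a log2 fold change of 0.13.

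In the proximal membrane arm 7 of 9 genes had a positive log2 fold change and 2 a negative one, with a median of 0.07, and none passed the test. Ndufa1, a small membrane subunit encoded on the X chromosome, was at 25.8, 26.1 and 27.2 CPM in CS and 33.1, 22.5 and 27.4 CPM in SS-31H_CS. Its SS-31H_CS libraries enclosed the CS range on both sides, with SDs of 5.31 and 0.751 CPM. Ndufc1 and Ndufc2 had the highest values of the arm, 0.29 (SE 0.185) and 0.26 (SE 0.189), and Ndufa11 the lowest, -0.17 (SE 0.171). Ndufa3, Ndufa8, Ndufa10, Ndufa13 and Ndufs5 lay between -0.08 and 0.08. Of the exons of Ndufa13, 30% overlap Tssk6 on the other strand, and the reads of the pair may not be told apart.

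The distal membrane arm, made up here of the 10 Ndufb genes, had 5 positive and 5 negative log2 fold changes, with a median of -0.01. Its groups did not overlap for 2 genes that were higher and 1 that was lower with SS-31. Over all tested genes these shares were 13.6% and 12.4%, so that no trait of the arm is read from these genes. Ndufb3, a small membrane subunit, was at 43.8, 39.4 and 39.8 CPM in CS and 45.2, 45.3 and 54.5 CPM in SS-31H_CS. Every SS-31H_CS library lay above every CS library, with SS-31H_CS replicate 3 well above the others. Its log2 fold change was 0.24 (SE 0.114, with adjusted p = 0.317) and fell to 0.14 without SS-31H_CS replicate 3. Ndufb11, the other X-linked subunit, was at 79.7, 74.4 and 72.2 CPM in CS and 82.8, 80.2 and 90.5 CPM in SS-31H_CS. The groups were separate by less than 1 CPM, and the log2 fold change was 0.16 (SE 0.101, with adjusted p = 0.424). Of the exons of Ndufb11, 12.9% overlap Rbm10 on the other strand, and the reads of the pair may not be told apart.

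Ndufb5 was at 35.4, 30.9 and 31.9 CPM in CS and 35.2, 40.2 and 42.9 CPM in SS-31H_CS. SS-31H_CS replicate 1 lay just below CS replicate 1, so that the groups overlapped, and the log2 fold change was 0.27 (SE 0.117, unadjusted p = 0.0495, adjusted p = 0.274 in edgeR's test). Of its exons, 12.3% overlap Mrpl47 on the other strand, and the strand setting of the counting is not given in the sources used here.

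Ndufb2 was at 23.9, 21.8 and 25.8 CPM in CS and 21.3, 21.1 and 20.6 CPM in SS-31H_CS. All SS-31H_CS libraries lay below all CS libraries, by a narrow margin. The means were 23.9 ± 1.99 and 21.0 ± 0.369 CPM (SD, n = 3 each), with a log2 fold change of -0.18 (SE 0.117, with adjusted p = 0.443). Ndufb7, a subunit on the intermembrane side, was at 74.4, 63.4 and 80.8 CPM in CS and 76.7, 58.9 and 61.2 CPM in SS-31H_CS. Its groups overlapped through SS-31H_CS replicate 1, with a log2 fold change of -0.15 (SE 0.141). Ndufb8, often blotted as a marker of assembled complex I, was at 62.4, 54.4 and 74.1 CPM in CS and 73.8, 51.8 and 61.1 CPM in SS-31H_CS. The ranges were nearly the same in both groups. Ndufb4, Ndufb6, Ndufb9 and Ndufb10 had log2 fold changes of 0.26, -0.05, -0.04 and 0.01. Of the exons of Ndufb6, 39.0% overlap Smim27 on the other strand, so that the same limit as for Ndufb5 applies. Of those of Ndufb9, 19.5% overlap Gm49356 on the same strand, and the reads of that pair may not be told apart.

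**Figure D3:**
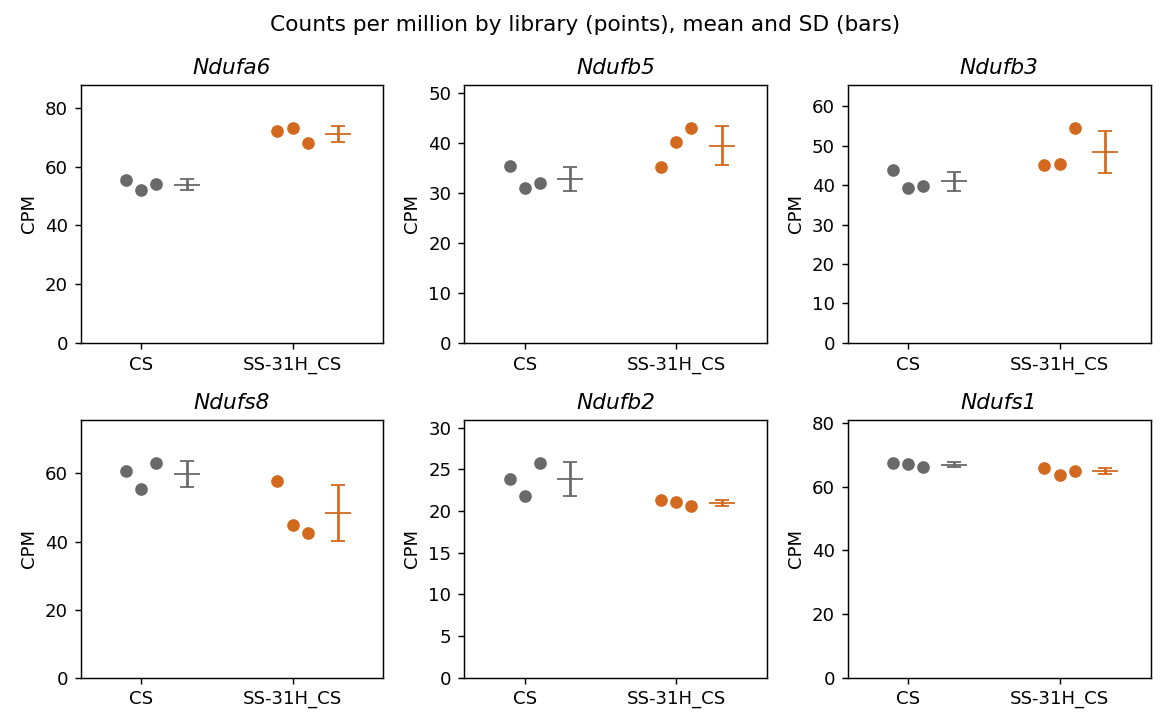
CPM (y axis, from 0) of 6 subunit genes in the 3 CS and 3 SS-31H_CS libraries, one point per library, with the group mean and SD beside the points. The groups of Ndufa6, Ndufb3, Ndufb2 and Ndufs1 do not overlap, with Ndufb2 and Ndufs1 separate by less than 1 CPM. Those of Ndufb5 and Ndufs8 overlap in 1 library.

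Ndufa4 carries a complex I symbol but is now assigned to cytochrome c oxidase. It was at 84.3, 81.7 and 98.5 CPM in CS and 90.0, 83.7 and 99.3 CPM in SS-31H_CS, with overlapping groups and a log2 fold change of 0.05 (SE 0.119). Ndufa4l2, its hypoxia-inducible relative known from vascular mural cells, was at 23.3, 24.0 and 12.7 CPM in CS and 25.0, 21.3 and 21.1 CPM in SS-31H_CS. Only CS replicate 3 stood apart, and the log2 fold change of 0.17 (SE 0.234) became -0.08 without that library.

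The 8 assembly factor genes lay at lower levels, and their estimates were less precise, with a median SE of 0.191 against 0.121 for the subunit genes. For 5 of the 8 the 95% interval lay within 1.5-fold, and for 29 of the 36 subunit genes. None had groups that did not overlap, 6 log2 fold changes were positive and 2 negative, and the lowest adjusted p was 0.557. Ndufaf4, which works with Ndufaf3 on the early Q module, was at 14.7, 12.2 and 18.3 CPM in CS and 9.04, 13.3 and 15.1 CPM in SS-31H_CS. SS-31H_CS replicate 1 was its lowest library, and the log2 fold change was -0.28 (SE 0.232). It was -0.10 without that library, -0.44 without SS-31H_CS replicate 3 and -0.12 without CS replicate 3. Ndufaf3 was at 24.5, 25.6 and 21.2 CPM in CS and 27.4, 23.7 and 25.9 CPM in SS-31H_CS, with overlapping groups and a log2 fold change of 0.11 (SE 0.124). Ndufaf4 and Ndufaf3 thus had estimates of opposite sign, neither past the test.

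Ndufaf6, an early-acting factor, was at 4.31, 2.87 and 4.08 CPM in CS and 4.26, 3.67 and 5.41 CPM in SS-31H_CS. The groups overlapped, with a log2 fold change of 0.25 (SE 0.262), which was 0.08 when CS replicate 2 was left out and 0.08 when SS-31H_CS replicate 3 was. Ndufaf1, which belongs to the membrane-arm assembly complex with Acad9 and Ecsit, was at 10.5, 9.23 and 9.82 CPM in CS and 10.1, 9.23 and 10.6 CPM in SS-31H_CS. Its group means differed by less than the SD of either group, 9.85 ± 0.640 and 9.99 ± 0.715 CPM (SD, n = 3 each).

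Ndufaf2 holds the place that Ndufa12 later takes in the finished complex. It was at 6.85, 6.08 and 6.36 CPM in CS and 5.44, 8.56 and 5.88 CPM in SS-31H_CS, where replicate 2 was the highest and replicate 1 the lowest of all 6 libraries. Of the 50-base exon stretches of Ndufaf2, 64.1% also occur in at least 1 of 65 other annotated genes. Among these is B230220B15Rik, which overlaps 65.6% of the exons of Ndufaf2 on the other strand and had 0 counts. Ndufaf5, which modifies Ndufs7, Ndufaf7, a methyltransferase, and Ndufaf8, the partner of Ndufaf5, had log2 fold changes of -0.07, 0.06 and 0.08.

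Per length, members differed far more from each other than between the groups. The deposited FPKM divide counts by the summed exon length, with a largest gap of 0.0764% over 44 members, so that genes with long annotated exons read lower. Ndufa2 led with 105.6 FPKM, followed by Ndufb11 (88.0), Ndufb10 (70.7), Ndufa8 (67.7) and Ndufa4 (64.7 FPKM). The lowest tested members were Ndufb4 (2.13), Ndufaf2 (2.19) and Ndufaf6 (3.31 FPKM). The median was 34.0 FPKM for the 36 tested subunit genes and 5.26 FPKM for the 8 assembly factor genes, of which Ndufaf8 was the highest at 19.4 FPKM. By FPKM the median member stood at the 91.6th percentile of all 21903 protein-coding genes, those without counts included. By log2 CPM, which is not scaled for length, 34.3% of all tested genes were at or above the median member.

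**Figure D4:**
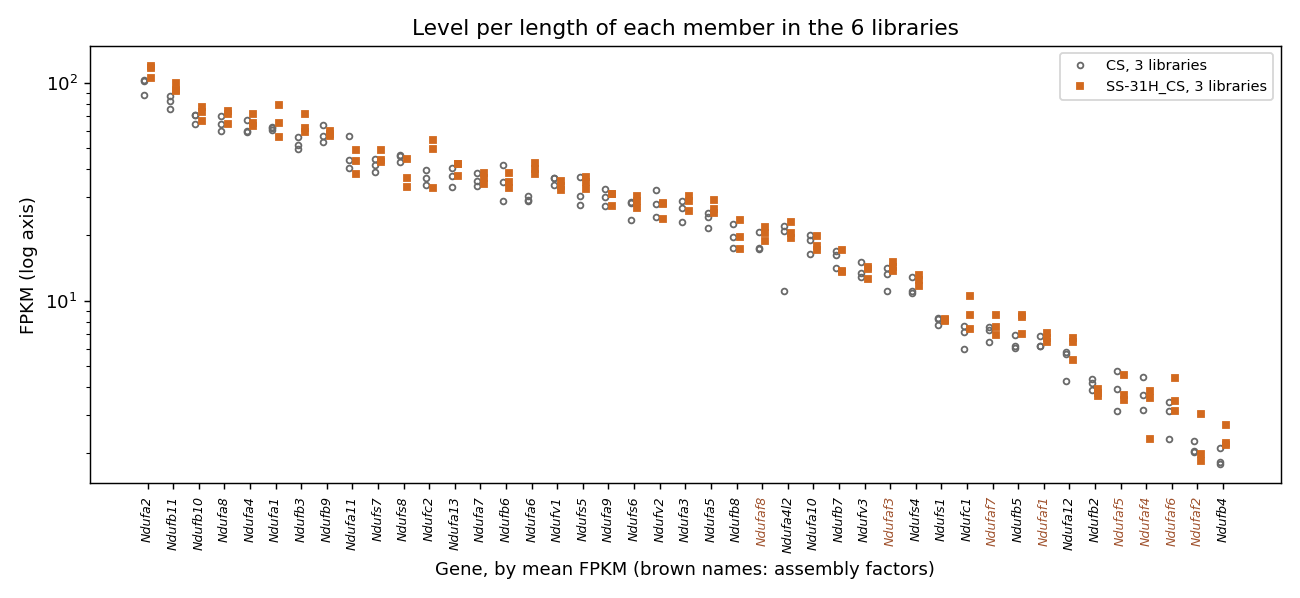
FPKM (log y axis) of 43 tested members in each of the 6 libraries, ordered by mean FPKM, with CS as circles and SS-31H_CS as squares. Levels run from 105.6 FPKM for Ndufa2 to 2.13 FPKM for Ndufb4, and the 8 assembly factors (brown names) lie in the lower part of the order.

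The subunit genes were not at one FPKM, and neighbours in this order overlapped between libraries. Because the annotated exon length enters the FPKM, whether their transcript levels differed in the same way was not tested. Ndufs1 (8086 bases of summed exons), Ndufb2 (5628), Ndufb5 (4995) and Ndufb7 (4522 bases) were among the members with the longest exons, and their FPKM of 8.15, 3.97, 7.23 and 15.3 lay below the subunit median. By CPM, Ndufs1 stood near Ndufa7, whose FPKM was 36.2.

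The libraries moved together over the members. CS replicate 2 had the lowest CPM of all 6 libraries in 23 of the 44 tested members, and of the CS libraries in 31 of 36 subunits. CS replicate 3 had the highest of all 6 libraries in 19 members. The mean deviation of the subunits from their own mean over the libraries was 0.01, -0.15 and 0.08 log2 CPM in CS replicates 1, 2 and 3 and 0.06, -0.03 and 0.04 in SS-31H_CS replicates 1, 2 and 3. This common shift between libraries of 1 group was larger than the median difference between the groups. The summed level of the subunits was 1829, 1644 and 1948 CPM in CS and 1900, 1740 and 1842 CPM in SS-31H_CS, with every SS-31H_CS value inside the CS range. The assembly factors summed to 109, 98.5 and 115 CPM in CS and 108, 103 and 118 CPM in SS-31H_CS, and CS replicate 2 was again the lowest.

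**Figure D5:**
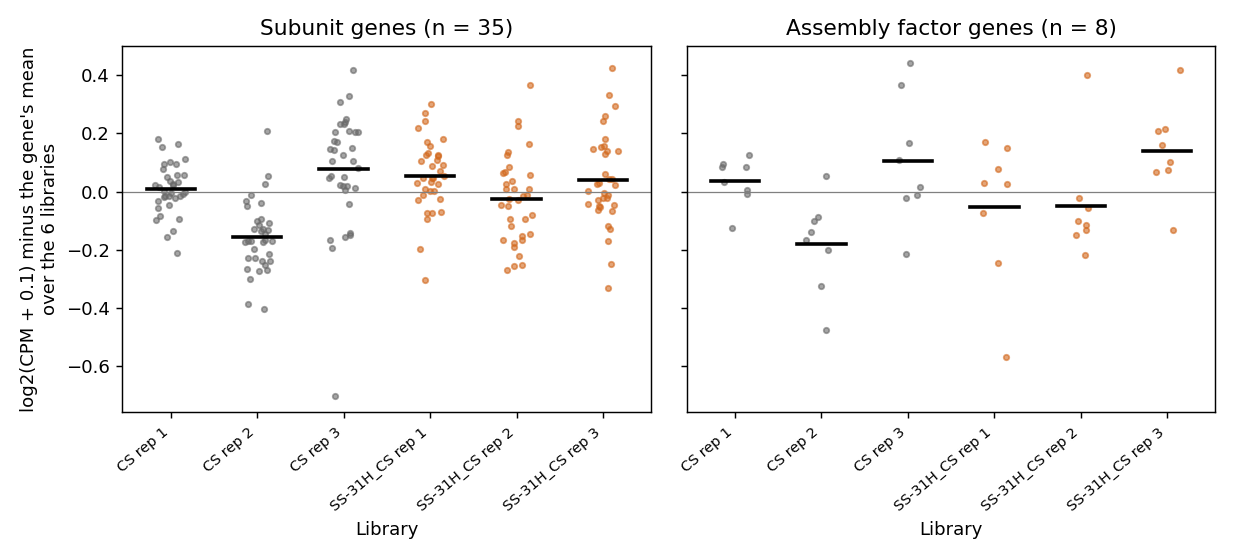
Each point is 1 tested gene's log2(CPM + 0.1) minus its mean over the 6 libraries (y axis), by library, with black bars for the mean over 35 subunit genes (left) and 8 assembly factor genes (right). CS replicate 2 lies lowest in both panels, and the other CS and SS-31H_CS libraries overlap.

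Heart muscle in the pulmonary veins is rich in mitochondria, and its 10 markers differed widely between libraries, from 236 to 709 CPM in CS and from 357 to 928 CPM in SS-31H_CS. CS replicate 2 was the lowest library for these markers too, with 236 CPM, whereas CS replicate 3, the highest for the subunits, was also low, with 358 CPM. None of them passed the test, and their part in the complex I values was not tested. The 4 tested adipocyte markers of 6 did not pass either, with a summed level of 41.1 to 78.9 CPM in CS and 44.3 to 72.4 CPM in SS-31H_CS.

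The mitochondrially encoded subunits were read from the same libraries. All 6 tested mt-Nd genes had a positive log2 fold change, from 0.21 to 0.43 with a median of 0.34, and none passed the test (lowest adjusted p = 0.419). Their summed level was 5198, 4534 and 5026 CPM in CS and 4781, 5410 and 7790 CPM in SS-31H_CS. SS-31H_CS replicate 3 stood above the other libraries, while SS-31H_CS replicate 1 lay within the CS range. In mt-Nd4, a proton-pumping subunit, the values were 1242, 1097 and 1207 CPM in CS and 1321, 1172 and 1961 CPM in SS-31H_CS. In mt-Nd2 they were 1112, 926 and 970 CPM in CS and 937, 1120 and 1772 CPM in SS-31H_CS. For the nuclear members, the summed subunit level of SS-31H_CS replicate 3 was 1842 CPM, inside the CS range, while its summed assembly factor level of 118 CPM was the highest of the 6 libraries, as was its level of 11 members.

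Of 12 other complex I genes with symbols outside the rule, 7 had a positive and 5 a negative log2 fold change (median 0.06), and none passed. Ecsit, an assembly factor, had the lowest p, at 26.4, 21.0 and 26.4 CPM in CS and 21.4, 17.7 and 21.4 CPM in SS-31H_CS (log2 fold change -0.29, adjusted p = 0.340). Foxred1, another assembly factor, had a log2 fold change of -0.16.

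The other nuclear-encoded complexes of the chain had median log2 fold changes between -0.10 and 0.06, and none of their genes passed the test. All 4 complex II genes were negative, with a median of -0.10, among them Sdhb at -0.16 and Sdha at -0.10. The 9 complex III genes had a median of -0.03. Uqcrh, its hinge subunit, was at 88.5, 75.4 and 73.0 CPM in CS and 102, 90.4 and 101 CPM in SS-31H_CS, without overlap (log2 fold change 0.31, adjusted p = 0.227), while Cyc1 had -0.25. The 10 complex IV genes had a median of 0.00, with Cox7c at 0.29 and Cox6c at 0.22. The 15 tested complex V genes had a median of 0.06, with Atp5a1 at -0.57 (adjusted p = 0.217) and Atp5j at 0.18. Atp5a1 was low in every library, at 5.91 to 12.1 CPM, while Atp5b of the same complex was at 492 to 772 CPM. What set this low level was not tested.

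The 8 regulators of nuclear respiratory genes had a median log2 fold change of 0.01, and none passed the test. Pprc1, a coactivator related to PGC-1, was at 42.1, 48.9 and 59.7 CPM in CS and 27.7, 32.4 and 38.6 CPM in SS-31H_CS. All SS-31H_CS libraries lay below all CS libraries, with a log2 fold change of -0.61 (SE 0.167, unadjusted p = 0.00634, adjusted p = 0.141 in edgeR's test). Nrf1, the factor of the NRF1 letters above, had a log2 fold change of -0.14 (SE 0.0963).

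Several members share exon sequence with copies elsewhere, so that their counts are uncertain. Ndufa12 had 904 counts over all libraries and its processed pseudogene Gm15920, which holds 17.7% of its 50-base stretches, had 1454. Summed with the copy, the CS level was 23.3 ± 3.66 CPM and the SS-31H_CS level 23.5 ± 0.895 CPM (SD, n = 3 each), against 8.44 ± 1.52 and 9.53 ± 1.11 CPM for Ndufa12 alone. Ndufb4 had 412 counts and its copy Ndufb4c 126, and summed they were at 5.18 ± 0.193 and 5.48 ± 0.746 CPM. Ndufs5 summed with its copy BC002163 was at 28.1 ± 5.00 and 29.8 ± 2.11 CPM, against 27.8 ± 5.05 and 29.4 ± 2.01 CPM alone. Ndufs3 summed with Gm12251 was at 1.77, 1.38 and 3.27 CPM in CS and 2.13, 3.12 and 2.29 CPM in SS-31H_CS, with overlapping groups.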

How the data were processed

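Lung RNA of 3 CS and 3 SS-31H_CS libraries was analysed from the tables the authors deposited, which hold whole-number read counts for each Ensembl gene and FPKM of the same libraries. Per the submitters' processing notes, cutadapt 1.9.1, HISAT2 2.0.1, HTSeq 0.6.1 and GRCm38 were used. The annotation release and strand setting are not given in the sources used here. Gene symbols came from GENCODE M21 (55394 of 55573 identifiers matched, 179 did not).

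Counts were tested with edgeR 4.0.16 in R 4.3.3 (quasi-likelihood test, TMM, minimum count 10, minimum total 15, two-sided, all 6 libraries, no covariate), with Benjamini-Hochberg adjustment over 16965 genes. Log2 CPM used a prior count of 2. The test was checked on simulated counts. Alternatives were RLE size factors, library size alone, no low-count filter, at least 1 CPM in 3 libraries, DESeq2 1.42.0, limma 3.58.1 (voom, and trend on log2 FPKM with pseudocounts of 1 and 0.1, with and without a mean FPKM of at least 0.5), the replicate number as a block, and each library left out in turn.

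The members, gene lists and named genes were chosen with earlier results of these data known. Named were the 4 subunits with the lowest p in each direction, the 3 assembly factors with the lowest p, 16 members fixed by role, the highest and lowest by FPKM, any called member, and up to 2 genes per other pathway list. Other members are named with fewer values. A single member counts in the totals and medians but is not reported here by itself or drawn. Gene lists are described by counts and medians only.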

Additional observations from a re-analysis of the deposited data

How the results depend on the processing

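No member was called under any of the 16 alternatives except Ndufa6 with DESeq2 (1 subunit gene, adjusted p = 0.0473); 0 assembly factors were called. Ndufa6 kept an unadjusted p under 0.05 in all of them, with a log2 fold change of 0.37 to 0.43 when single libraries were left out. The number of all genes changed, 26 in the analysis reported, was 12 with library size alone, 648 without a low-count filter, 941 with DESeq2, 6 with limma voom, 6, 5 and 4 on log2 FPKM (pseudocount 1, pseudocount 0.1, and pseudocount 1 without filter), and 1 to 15 with single libraries left out, where every omission lowered it by more than 1.5 times. The replicate numbers did not pair the libraries (correlations of same-numbered libraries 0.00721, 0.0363 and -0.0571). With the replicate number as a block, 0 genes and 0 members were called. The median of the subunit genes ran from -0.038 (without CS replicate 2) to 0.088 (without CS replicate 3) with single libraries left out, where it was also negative without SS-31H_CS replicate 1 (-0.015). Under the other alternatives it ran from 0.026 (DESeq2) to 0.103 (log2 FPKM with a pseudocount of 0.1), and was 0.102 with library size alone. Of 24 named members tested, 11 changed sign under at least 1 alternative, with values of at most 0.184 in size. Ndufb8 and Ndufs1 turned positive with library size alone (0.024 and 0.011) and on log2 FPKM (0.018 and 0.010 with a pseudocount of 1, filtered or not, and 0.019 and 0.011 with 0.1). With single libraries left out the ranges were -0.089 to 0.195 for Ndufa1, -0.026 to 0.128 for Ndufa4, -0.077 to 0.315 for Ndufa4l2, -0.150 to 0.019 for Ndufa9, -0.030 to 0.074 for Ndufaf1, -0.184 to 0.160 for Ndufaf2, -0.180 to 0.087 for Ndufb8, -0.025 to 0.140 for Ndufs4, -0.057 to 0.107 for Ndufs6 and -0.012 to 0.107 for Ndufs7. Without a change of sign, Ndufv1 moved to -0.079 (without SS-31H_CS replicate 2), Ndufa2 to 0.083 (without CS replicate 2), Ndufaf3 to 0.031 and Ndufb7 to -0.075 (without CS replicate 3), Ndufb7 to -0.287 (without SS-31H_CS replicate 1), and Ndufb11 to 0.108 (without SS-31H_CS replicate 3). The cause was not tested. Without the low-count filter and with DESeq2, Ndufs3 came under an unadjusted p of 0.05 on its 13 counts, 12 of them in 1 library, which gives no level.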

Other observations

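Among the mitochondrially encoded subunits, mt-Nd3 was at 0.516 to 1.41 CPM while mt-Nd1, mt-Nd4 and mt-Nd5 were each above 1000 CPM in every library. mt-Nd4l had too few counts to be tested.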
